A study of Sus scrofa with 6 samples.

Results

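Integrins, laminins and collagens were followed in 6 keratinocyte clones of the pig, 3 grown from cornea and 3 from conjunctiva, the neighbouring surface epithelia of the eye. The family genes were taken by symbol from the array's annotation: integrin alpha and beta chains, laminin alpha, beta and gamma chains, and collagen chains. Of 6765 genes measured by a probe set with a single gene symbol, 29 belonged to these families, namely 11 integrin, 3 laminin and 15 collagen genes. They had 53 probe sets, and each gene was represented by the probe set with the highest mean over the 6 arrays. ITGB1BP2, whose symbol starts like that of an integrin but which encodes a binding protein, was left out.

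Per the labels, biopsies taken 6 mm from the limbus came from white domestic pigs, of which the labels name 2, AP1 and AP6, without saying which clone came from which. No treatment or genetic change is named for either tissue. Each clone grew from a single cell over a feeder layer of irradiated mouse fibroblasts (3T3-J2), so every sample is 1 clone and mouse cells shared its dish. Total RNA was hybridised to 1 Affymetrix porcine array per clone, and the values below are log2 values made by the robust multi-array average (RMA). The labels do not say that the clones came from separate cultures, so p-values measure only the spread between these samples. The number of arrays limits the precision.

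Integrins are cell surface receptors made of an alpha and a beta chain, which bind matrix proteins outside the cell and the actin or keratin skeleton within it. Laminins are trimers of an alpha, a beta and a gamma chain that form the sheet of the basement membrane. Collagens are triple helices that form fibrils, networks or anchors, and a few, such as collagen XVII, span the cell membrane. Basal cells of stratified epithelia are held to the basement membrane by hemidesmosomes, in which integrin alpha 6 beta 4 and collagen XVII bind laminin. The genes ITGB4, ITGA3, LAMA3, LAMB3, COL4A1 and COL1A1 lacked such a probe set in the annotation used and were not analysed here.

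**Figure D1:**
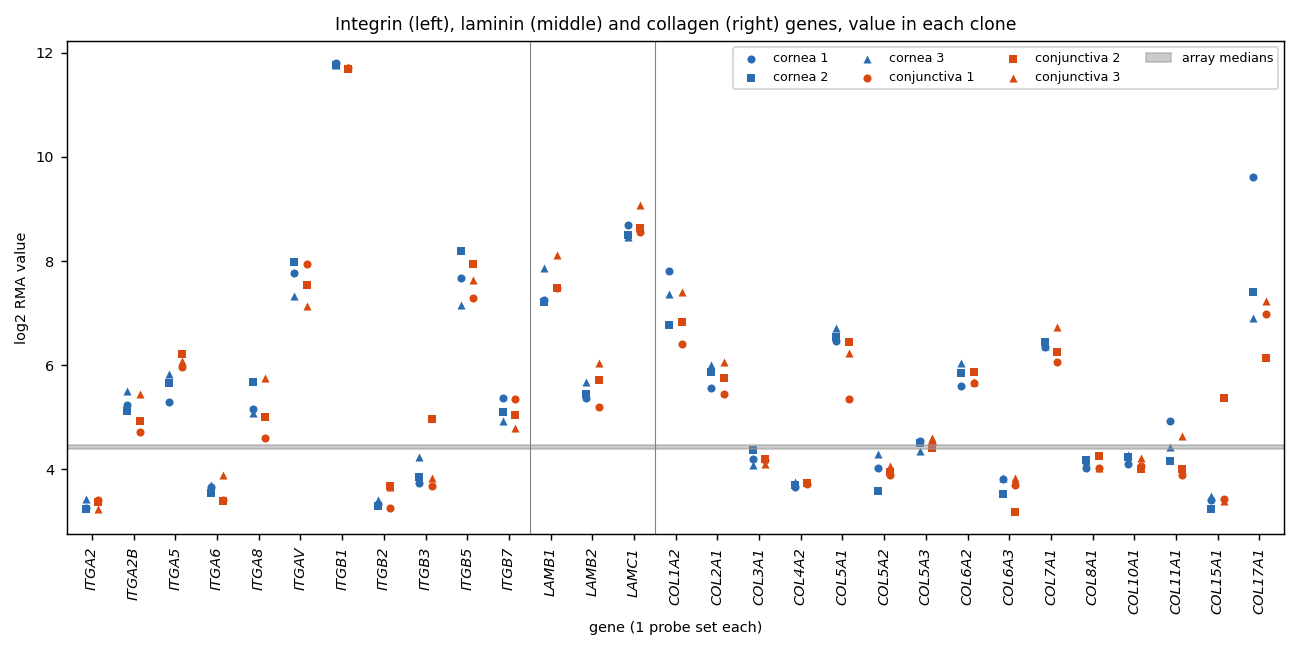
Log2 RMA value (y axis) of each of the 29 family genes (x axis) in every clone, with corneal clones in blue, conjunctival clones in orange and 1 marker shape per clone number; the grey band spans the array medians from 4.4 to 4.478. For most genes the points of both tissues lie together, COL17A1 in cornea 1 and COL15A1 in conjunctiva 2 stand apart, and 9 genes lie below the band in every clone.

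No family gene passed the threshold of adjusted p 0.05 between conjunctiva and cornea (limma, Benjamini-Hochberg over 23999 probe sets). The count was 0 of 29, where 0% of all probe sets passed, and each family gene had an adjusted p of 0.9999. At an unadjusted p under 0.05 stood 1 family gene, ITGA5, beside 2.7% of all probe sets and 3.12% of named genes. Without moderation of the variances the count was also 0, with 2 at an unadjusted p under 0.05. Of the 29 genes, 11 had the higher mean in conjunctiva and 18 the lower, with a median difference of -0.05 on the log2 scale, against 0.01 over all named genes. The 95% confidence interval of the difference lay within 2-fold for 24 of the 29, or 82.8%, against 89.3% of named genes.

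A difference of at least 2-fold between tissue means was seen for 1 family gene, COL17A1, beside 0.488% of all probe sets and 0.887% of named genes. The values of the tissues did not overlap for 3 of the 29, ITGA5, ITGB1 and COL5A1, or 10.3%, beside 7.28% of all probe sets and 6.71% of named genes. With 3 clones in each tissue, an exact permutation test of a single gene cannot go below a two-sided p of 0.1. On the arrays, 16 family genes lay at or above the array median in all clones (7 integrin, 3 laminin and 6 collagen genes), 9 lay below it in all clones and 4 were mixed. No filter on low values was used, and a level below the median does not tell a silent gene from a weak probe set, since no detection calls were used here.

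**Figure D2:**
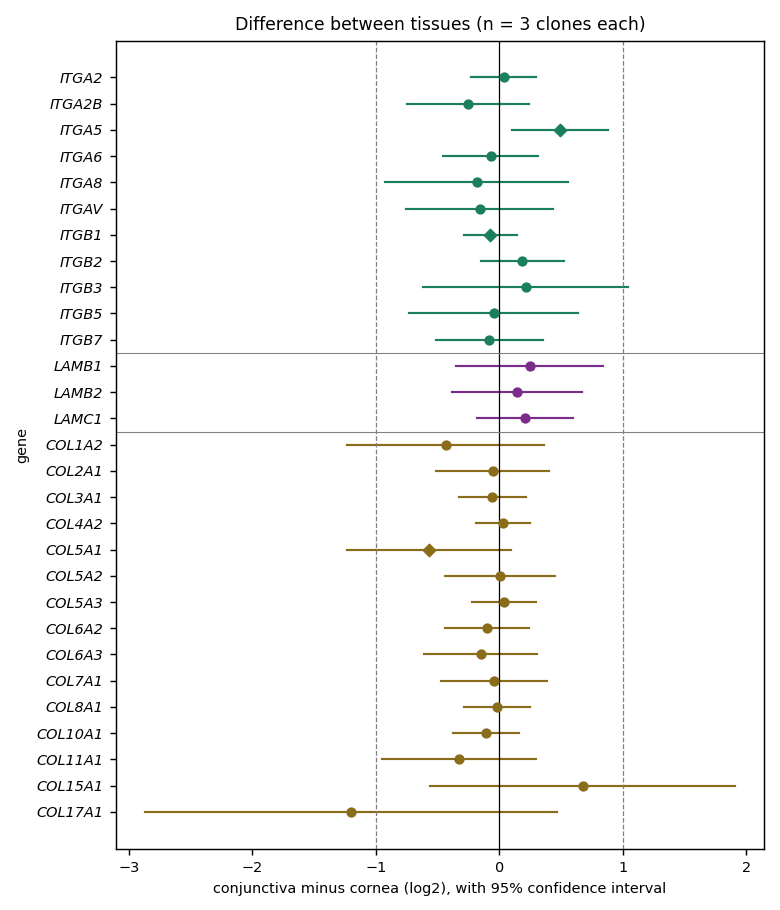
Difference of each family gene between conjunctiva and cornea (x axis, log2, conjunctiva minus cornea; points are differences of means of 3 clones, lines the 95% confidence intervals by limma), with integrins at the top, laminins in the middle and collagens at the bottom. Diamonds mark the 3 genes without overlap between tissues and dashed lines mark 2-fold; the interval of ITGA5 alone leaves out 0, and that of COL17A1 is the widest.

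Among the integrins, the beta 1 chain ITGB1, the partner of most epithelial alpha chains, lay in a narrow band in all clones. It read 11.80, 11.77 and 11.76 in cornea 1, 2 and 3 and 11.70, 11.68 and 11.72 in conjunctiva 1, 2 and 3. All corneal values lay above all conjunctival values, by a gap of only 0.03. The difference was -0.07 (SE 0.09, 95% confidence interval -0.29 to 0.14, limma adjusted p = 0.9999). Its SD over the 6 clones, 0.045, ranked 6731 among 6765 named genes in order of falling spread.

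ITGA5, the alpha 5 chain that pairs with beta 1 to bind fibronectin, was the family gene with the smallest p. Its level was 5.30, 5.66 and 5.83 in the corneal clones and 5.96, 6.22 and 6.09 in the conjunctival clones. Every conjunctival value lay above every corneal one, with a gap of 0.13. The conjunctival mean was 6.09 ± 0.13 and the corneal 5.60 ± 0.27 (SD, n = 3), a difference of 0.49 (SE 0.16, unadjusted p = 0.02 and adjusted p = 0.9999 by limma). A second ITGA5 probe set pointed the other way, at 5.45, 4.48 and 4.70 in cornea and 4.75, 4.42 and 4.78 in conjunctiva, a difference of -0.22. The higher conjunctival mean was thus seen on 1 of 2 probe sets. Within stations 1 and 2 the difference was 0.86 and 0.21.

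The alpha V chain ITGAV and the beta 5 chain ITGB5, which together form a receptor for vitronectin, were both well above the array medians. ITGAV read 7.78, 7.98 and 7.34 in cornea and 7.94, 7.54 and 7.13 in conjunctiva, so that the clones numbered 3 were the lowest of each tissue. ITGB5 stood at 7.67, 8.20 and 7.16 in cornea and at 7.30, 7.94 and 7.65 in conjunctiva, with the clones numbered 2 at the top of each tissue. The tissue means overlapped for both, with differences of -0.16 (SE 0.25) and -0.05 (SE 0.29). The sign of the ITGAV difference turned without conjunctiva 3 (0.04), and that of ITGB5 without conjunctiva 1 (0.12) or cornea 2 (0.22).

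ITGB3, another beta chain that pairs with alpha V, was dim in all clones but one. It lay at 3.74, 3.86 and 4.24 in cornea and at 3.68, 4.97 and 3.83 in conjunctiva. Conjunctiva 2 alone lay above the array medians. The difference of 0.21 (SE 0.35) became -0.19 without that clone.

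The alpha 8 chain ITGA8, a partner of beta 1 known from mesenchymal cells, varied more between clones than between tissues. Its 3 probe sets shared the sign of a lower conjunctival mean. The brightest read 5.15, 5.68 and 5.08 in cornea and 4.60, 5.01 and 5.75 in conjunctiva, a difference of -0.18 (SE 0.31) that was 0.08 without conjunctiva 1 and 0.0031 without cornea 2. A second one ranged from 3.37 in conjunctiva 1 to 5.54 in conjunctiva 3, within a single tissue. Conjunctiva 1 was the lowest clone on all 3 probe sets.

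ITGA2B, the alpha IIb chain best known from platelets, gave 5.24, 5.11 and 5.51 in cornea and 4.72, 4.94 and 5.44 in conjunctiva (difference -0.25, SE 0.21, and -0.10 without conjunctiva 1). ITGB7, a beta chain of lymphocyte integrins, followed the clone number closely on the brighter of its probe sets. It read 5.37, 5.11 and 4.94 in cornea and 5.35, 5.04 and 4.79 in conjunctiva. In both tissues clone 1 was the highest and clone 3 the lowest. The other ITGB7 probe set, below the array medians, did not keep this order, at 4.04, 4.04 and 4.20 in cornea and 3.98, 4.11 and 3.93 in conjunctiva.

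Of the integrin genes, 3 lay below the array medians in all clones. ITGA2, the collagen-binding alpha 2 chain, ranged from 3.23 to 3.43 over the 6 clones, and ITGB2, the beta chain of leukocyte integrins, from 3.26 to 3.69. ITGA6, the laminin-binding chain of hemidesmosomes, ranged from 3.39 to 3.90 on its 1 probe set. The differences of these genes were 0.03, 0.19 and -0.07 in this order, and each 95% interval held 0.

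All 3 laminin genes had their highest value in 1 clone, conjunctiva 3, the highest clone for 15.8% of all named genes. LAMC1, the gamma 1 chain found in most laminin trimers, read 8.70, 8.51 and 8.46 in cornea and 8.57, 8.64 and 9.08 in conjunctiva. LAMB1, the beta 1 chain that pairs with it, read 7.26, 7.21 and 7.87 in cornea and 7.48, 7.48 and 8.12 in conjunctiva. LAMB2, the alternative beta 2 chain, read 5.38, 5.45 and 5.68 in cornea and 5.20, 5.71 and 6.04 in conjunctiva. Clone 3 was the highest in each tissue for LAMB1 and LAMB2, whereas cornea 3 was the lowest clone for LAMC1.

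The mean of each laminin gene was higher in conjunctiva, by 0.25 (SE 0.25) for LAMB1, 0.14 (SE 0.22) for LAMB2 and 0.21 (SE 0.16) for LAMC1, none past the threshold (limma adjusted p = 0.9999 for each). Without conjunctiva 3 the differences were 0.03, -0.05 and 0.05. For LAMB1, the difference between clones of the same number was 0.22, 0.26 and 0.26 for numbers 1, 2 and 3, a narrow band beside a range of 0.91 over the 6 clones. With the clone number as a block its SE fell from 0.25 to 0.10 (unadjusted p = 0.057 and adjusted p = 0.938 by limma). In the same fit ITGA5 and COL5A1 had smaller unadjusted p, 0.011 and 0.039, each with adjusted p = 0.938 by limma. The LAMB1 probe set not used for the gene and all 3 others of LAMC1 had the opposite sign, so the direction of both depends on the probe set. On that LAMB1 probe set the differences for numbers 1, 2 and 3 were -1.05, 0.19 and 0.41, so the narrow band was not seen there.

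**Figure D3:**
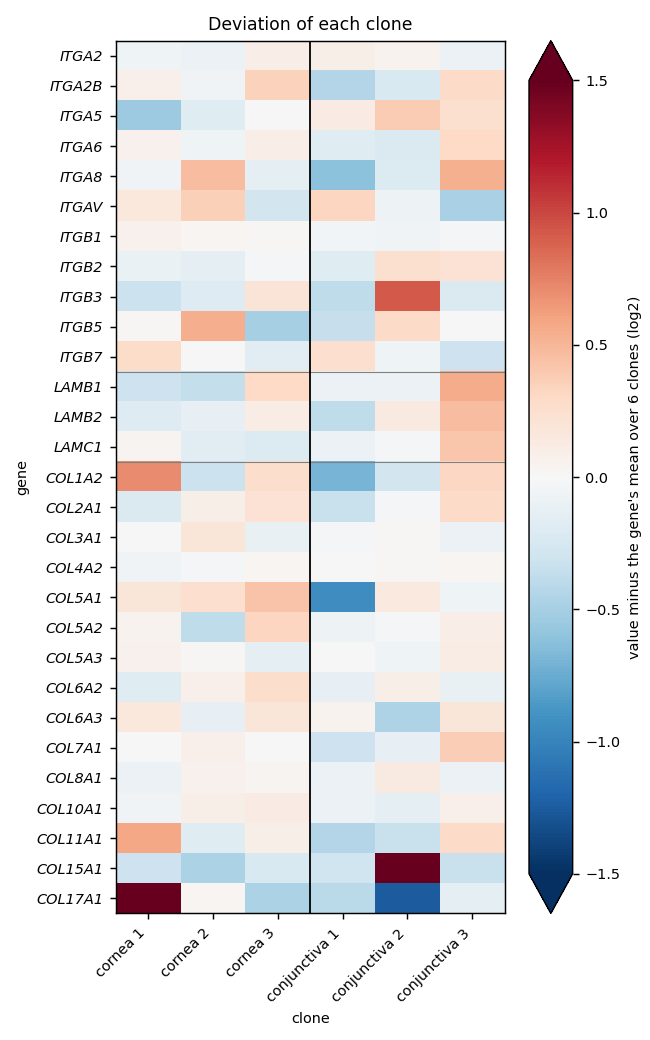
Value of each clone (columns, corneal clones left of the line) minus the gene's mean over the 6 clones (colour, log2, red above and blue below the mean) for the 29 family genes (rows, integrins, laminins and collagens from top to bottom). The laminin rows are reddest in conjunctiva 3, COL17A1 in cornea 1, and COL15A1 and ITGB3 in conjunctiva 2, while COL5A1 is bluest in conjunctiva 1.

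Of the collagens, COL17A1, the transmembrane collagen of hemidesmosomes, spread the most over the clones of all family genes. Its level was 9.62, 7.41 and 6.91 in the corneal clones and 6.98, 6.13 and 7.24 in the conjunctival clones. Cornea 1 lay 2.21 above the next clone, and the tissues overlapped, since cornea 3 was below conjunctiva 1 and 3. The range over the clones amounted to 11.2-fold. The corneal mean was 7.98 ± 1.44 and the conjunctival mean 6.78 ± 0.58 (SD, n = 3), a 2.3-fold difference (-1.20, SE 0.70, limma adjusted p = 0.9999). It was -0.38 without cornea 1, and -2.94 and -0.18 within the fluidics stations 1 and 2, each of which held a lone array of 1 tissue. The other COL17A1 probe set was dim, at 3.70 to 4.25. Cornea 1 did not stand out on it, at 3.81, and cornea 2 was the highest clone.

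COL7A1, which forms the anchoring fibrils beneath the basement membrane, lay at 6.36, 6.44 and 6.38 in cornea and 6.06, 6.25 and 6.74 in conjunctiva (difference -0.05, SE 0.18). The corneal values lay close together and the conjunctival ones on both sides of them. COL4A2, a chain of the collagen IV network of basement membranes, lay below the array medians, at 3.66 to 3.75, with an SD of 0.033 that ranked 6753 of 6765.

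COL15A1, a basement membrane collagen usually made by stromal and vascular cells, was dim in 5 clones and 5.37 in conjunctiva 2. The other clones read 3.42, 3.25 and 3.50 in cornea and 3.43 and 3.39 in conjunctiva, with an SD of 0.092 among these 5. Conjunctiva 2 stood 1.87 above the next clone. The tissue difference of 0.68 (SE 0.52) was 0.02 without it. Together with COL17A1 it made 2 of 29 family genes with a lone clone at least 2-fold apart from its neighbour, or 6.9%, against 2.29% of named genes.

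The fibrillar collagens were measured for types I, II, III, V and XI. COL1A2, a chain of collagen I, was above the medians in all clones, at 7.81, 6.77 and 7.36 in cornea and 6.40, 6.83 and 7.41 in conjunctiva. Its difference of -0.44 (SE 0.34) was -0.19 without cornea 1 and -0.20 without conjunctiva 1, the highest and the lowest clone. The second COL1A2 probe set was dim, at 3.03 to 3.46.

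COL5A1, the alpha 1 chain of collagen V that joins collagen I fibrils, was lower in every conjunctival clone than in any corneal clone, but by a gap of 0.026. The values were 6.47, 6.55 and 6.72 in cornea and 5.36, 6.45 and 6.23 in conjunctiva. The difference was -0.57 (SE 0.28, unadjusted p = 0.081 and adjusted p = 0.9999 by limma) and -0.24 without conjunctiva 1, the lowest clone. Within stations 1 and 2 it was -0.13 and -1.28. Of its 5 other probe sets, 3 shared the sign, but with differences of only -0.07, -0.06 and -0.08, and the others gave 0.11 and 0.0067. The tissues overlapped on each of the 5, of which 4 had a mean below the array medians. On the probe sets used, the partner chains COL5A2 and COL5A3 differed by 0.0048 and 0.04, at levels of 3.59 to 4.30 and 4.35 to 4.60. Their other probe sets, with means below the array medians, had the lower mean in conjunctiva. The differences were -0.24 for COL5A2, and -0.09 and -0.21 for COL5A3. On the last the tissues did not overlap, with a gap of 0.11.

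COL3A1, the fibrillar collagen of soft connective tissue, lay below the array medians in all clones, at 4.08 to 4.38. COL5A2, its neighbour on the chromosome in RefSeq assembly Sscrofa11.1, lay below them too. COL11A1, a cartilage collagen, ran from 3.90 in conjunctiva 1 to 4.92 in cornea 1 (difference -0.33, SE 0.26, and -0.12 without cornea 1). COL2A1, the main cartilage collagen, followed the clone number, at 5.56, 5.87 and 6.00 in cornea and 5.45, 5.75 and 6.06 in conjunctiva. Clone 1 was the lowest and clone 3 the highest in both tissues.

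The collagen VI chains COL6A2 and COL6A3 ranged from 5.60 to 6.04 and from 3.19 to 3.83, with differences of -0.10 (SE 0.14) and -0.15 (SE 0.19). COL8A1, a network-forming collagen known from the corneal endothelial membrane, lay at 4.03 to 4.26 and COL10A1, the collagen of growth cartilage, at 4.004 to 4.27, both below the array medians. Of all 15 collagen genes, 4 had the higher and 11 the lower mean in conjunctiva, with a median difference of -0.06. The 6 above the array medians in all clones all had the lower mean in conjunctiva, with a median of -0.27, and the other 9 split 4 higher to 5 lower. Of all 4652 named genes at that level, 1903 had the lower mean, with a median of 0.04. The other COL2A1 probe set, also above the array medians in all clones, had the higher mean in conjunctiva, by 0.04. The direction of COL2A1 thus depends on the probe set. With 1 clone left out, a comparison chosen after seeing the data, 3 of the 6 collagen genes turned their sign: COL7A1 without conjunctiva 1 (0.10) or conjunctiva 2 (0.0053), COL2A1 without conjunctiva 1 (0.10) or cornea 3 (0.04), and COL6A2 without cornea 3 (0.0048).

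**Figure D4:**
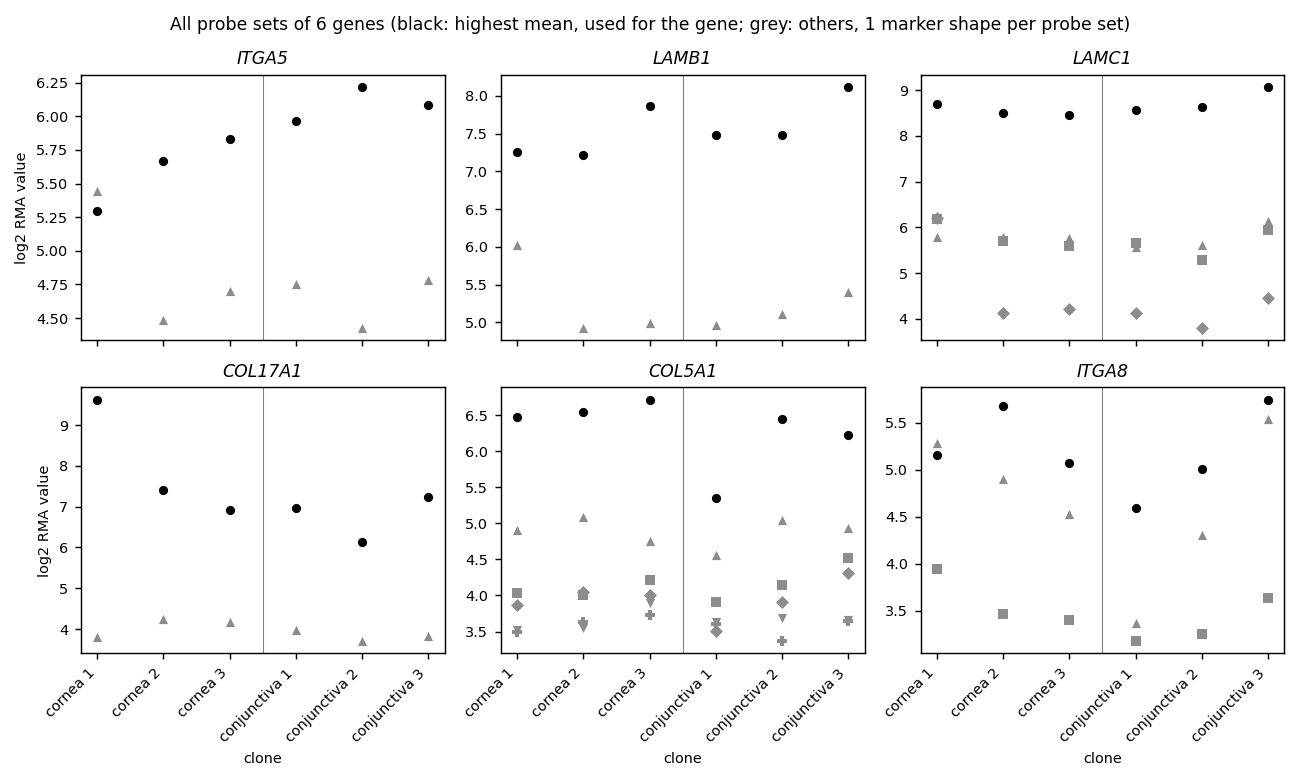
Log2 RMA value (y axis) in each clone (x axis, corneal clones left of the line) on all probe sets of ITGA5, LAMB1, LAMC1, COL17A1, COL5A1 and ITGA8; black points are the probe set used for the gene and grey points the others, 1 shape each. On the grey probe sets of ITGA5 and LAMB1 and on 2 of the 3 of LAMC1, cornea 1 is the highest clone, which the black ones do not show.

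Of the 29 genes, 14 had more than 1 probe set, and 10 of their 24 further probe sets had the sign of the one used. Most of these further probe sets were dim, with a mean below the array medians for 16 of the 24. Cornea 1 was the highest clone on 8 of the 24, or 33.3%, against 24.4% of all further probe sets of named genes. The clearest were a LAMC1 probe set at 6.21 in cornea 1 and 3.79 to 4.45 in the other clones, and the second LAMB1 probe set at 6.02 in cornea 1 and 4.92 to 5.41 elsewhere. Cornea 1 also had the lowest 3' minus 5' signal of the control gene GAPDH, a measure of RNA quality. It was -0.13 against 0.23 to 0.42 in the other clones. On a second GAPDH pair cornea 1, at 0.396, was almost level with conjunctiva 1, at 0.398, and the other clones had 0.53 to 0.68. For actin cornea 1 was the lowest as well, at 0.46 against 0.55 to 1.11, and on a second actin pair at -1.36 against -1.20 to -0.62. The part of RNA quality in these values was not tested.

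The spread between clones was set beside that of all genes. The SD over the 6 clones had a median of 0.24 over the 29 genes, 0.30 for integrins, 0.30 for laminins and 0.23 for collagens, against 0.22 over all named genes. Among genes above the array median in all clones the medians were 0.32 for the families and 0.24 for all named genes. A range of at least 2-fold over the clones was seen for 8 of 29 genes, or 27.6% (3 integrins, 0 laminins and 5 collagens), beside 16.5% of named genes. These were ITGA8, ITGB3, ITGB5, COL1A2, COL5A1, COL11A1, COL15A1 and COL17A1. Within a tissue, the median SD was 0.17 in cornea and 0.31 in conjunctiva, against 0.20 and 0.19 over all named genes.

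**Figure D5:**
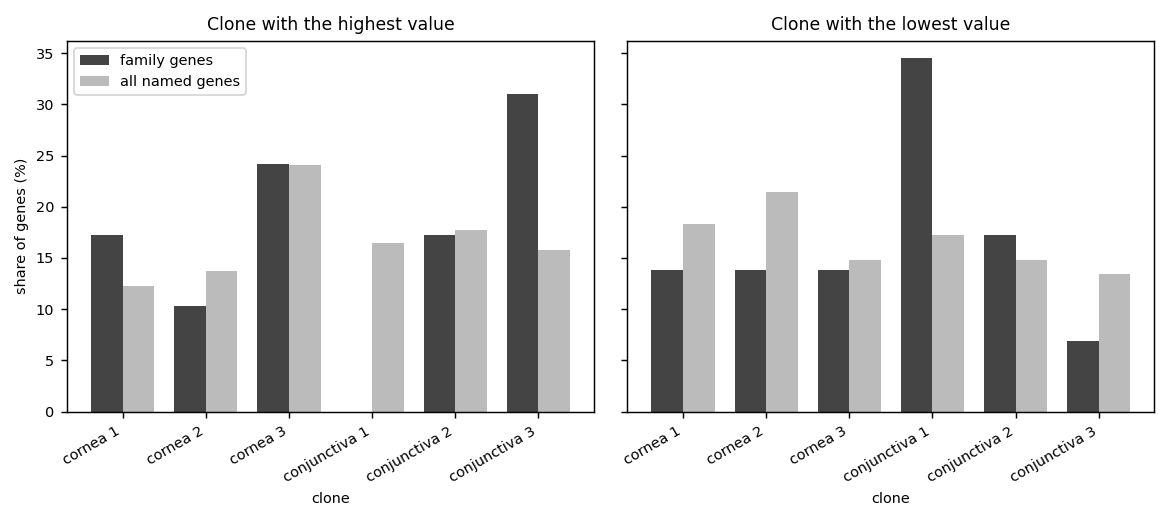
Share of genes (y axis, %) for which each clone (x axis) had the highest value (left) or the lowest value (right) among the 6, for the 29 family genes (dark bars) and all 6765 named genes (light bars). Conjunctiva 1 was the highest clone for 0% and the lowest for 34.5% of the family genes, and conjunctiva 3 the highest for 31%.

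Conjunctiva 1 was the lowest clone for 10 of the 29 family genes, or 34.5%, against 17.2% of all named genes, and the highest for 0 of 29, against 16.5%. Those 10 were ITGA2B, ITGA8, ITGB2, ITGB3, LAMB2, COL1A2, COL2A1, COL5A1, COL7A1 and COL11A1. Its array also had the lowest median, 4.40. After centring each array on its median it was the lowest for 9 and the highest for 4, and after renewed quantile normalisation for 10 and 2. Conjunctiva 3 was the highest clone for 9 of 29, or 31%, and cornea 3 for 7, or 24.1%, where 15.8% and 24.1% of all named genes had them highest.

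Clone number took a larger share of the spread than tissue. For 24 of the 29 genes, or 82.8%, the clone number held more of the sum of squares over the 6 clones than the tissue did, as for 80.9% of all named genes. The median shares were 49.1% for the number and 10.6% for the tissue, against 53% and 9.83% over all named genes. The number has 3 levels and the tissue 2, so the shares are not on an equal footing. The number held 94.7% for ITGB7, 94.7% for COL2A1 and 85.5% for LAMB1, while the tissue held 83.1% for ITGB1 and 66.4% for ITGA5. Each share is that of the probe set used for the gene. The labels do not say what a shared number means.

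The ligands and partners of these receptors were read from lists of known genes. Of 28 matrix ligands and basement membrane genes 12 were measured, and 0 passed in either direction (limma, Benjamini-Hochberg over all probe sets), with 6 higher and 6 lower in conjunctiva and a median difference of 0.08. The spread of this list over the clones was wide, with a median SD of 0.75. FN1, which encodes fibronectin, the ligand of integrin alpha 5 beta 1, was chosen from the list after its values were seen, at 5.07, 5.01 and 6.92 in cornea and 4.22, 8.27 and 4.34 in conjunctiva. SPP1, which encodes osteopontin, a ligand of alpha V integrins, was chosen in the same way, at 3.59, 3.84 and 4.52 in cornea and 4.14, 7.60 and 4.56 in conjunctiva. Both had their highest value in conjunctiva 2, the clone in which ITGB3 and COL15A1 were highest. Over the list, conjunctiva 2 was the highest clone for 4 of 12 genes and the lowest for 1. SPARC had the largest SD of the list, 2.06, with 5.31 in cornea 3 and 9.45 to 11.02 in the other clones, conjunctiva 2 the highest. Of the other genes, NID2 and THBS1 were highest in cornea 2, FBN1 in cornea 3 and TNC in conjunctiva 1.

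Fibroblast and keratocyte markers, other than the families, had a mean level of 5.76 to 6.01 in the corneal and 5.58 to 6.01 in the conjunctival clones, with 13 of 18 measured. Of these 13, 7 lay above the array medians in all clones, 5 below them in all and 1 was mixed. Among the 7, VIM lay at 10.60 to 11.85, MFAP5 at 5.03 to 9.84 and PDGFRB at 6.47 to 6.91. The stromal gene LUM lay at 2.82 to 2.95, below the array medians in all clones, as did FAP, POSTN, DPT and TWIST2. DCN, another stromal proteoglycan gene, was highest in conjunctiva 2, at 8.48 against 5.61 to 6.99 in the others, and THY1 as well, at 12.24 against 9.66 to 11.23. Both were chosen after their values were seen. Over the list, conjunctiva 2 was the highest clone for 3 of 13 markers and the lowest for 2, LUM and POSTN, and its mean of 6.01 was like that of cornea 2, at 6.005. The part of these markers in the COL15A1 and ITGB3 values of that clone was not tested. In arrays of whole clones, fewer cells of a type and less RNA per cell cannot be told apart.

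Of 30 focal adhesion genes, which link integrins to actin, 14 were measured, with 0 past the threshold, 4 higher and 10 lower in conjunctiva and a median difference of -0.08. Of 30 collagen processing genes 12 were measured, with 0 past the threshold and a split of 7 to 5 (median 0.02). PCOLCE2, an enhancer of procollagen cleavage, had the smallest p of these, with a difference of -0.50 and no overlap (unadjusted p = 0.0311 and adjusted p = 0.9999 by limma), and was chosen after its values were seen. It read 4.45, 4.13 and 3.98 in cornea and 3.41, 3.73 and 3.93 in conjunctiva, a gap of 0.05. Only in cornea 1 did it reach the array median. No overlap was seen for 1 of the 12, or 8.33%, beside 6.71% of named genes. Of 8 hemidesmosome and linked genes 6 were measured, COL17A1 among them, with 0 past the threshold and a split of 4 to 2 (median 0.03). DST, whose epithelial product is a plaque protein of hemidesmosomes, lay at 6.58, 6.67 and 5.43 in cornea and 7.16, 6.53 and 6.30 in conjunctiva. Cornea 1 had the highest list mean, 9.87 against 8.995 to 9.51 in the other clones. That mean holds COL17A1, which read 9.62 in cornea 1 and 6.13 to 7.41 elsewhere, so it is no separate observation. Cornea 1 was the highest clone for 3 of the 6 genes, COL17A1, DSP and CD9. Conjunctiva 2 was the highest for CD151 and CD81, and conjunctiva 1 for DST.

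Keratinocyte markers were high in every clone, with a mean of 9.77 to 10.38 in cornea and 9.80 to 10.14 in conjunctiva over the 8 of 19 measured, 7 of them above the array median in all clones. Of 6 leukocyte markers 5, of 7 endothelial markers 4, of 5 muscle and pericyte markers 3 and of 4 melanocyte markers 2 lay below the median in all clones. Among those above it in all clones, TAGLN of the muscle and pericyte markers lay at 8.01 to 10.86. The endothelial and platelet adhesion gene PECAM1 lay at 7.11 to 8.22, and AIF1 of the leukocyte markers at 6.33 to 8.45. The others were VWF at 4.82 to 5.33, DES at 4.75 to 5.17 and SOX10 at 4.45 to 4.85. Of the goblet cell markers 1 of 6 was measured, TFF3, at 4.19 to 4.60.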

How the data were processed

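Gene expression was measured in 6 clones on 1 porcine array each. The authors deposited log2 values made with RMA, per the submitters' processing notes, and its version and the set of arrays normalised together are not given in the sources used here. Its quantile step evens out the arrays, which hides any change in RNA per cell. Station and module entries came from the array run records, deposited as text of another kind; these also name an irradiation time course, of which the labels say nothing. The 124 control probe sets were left out of the 23999 tested.

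Symbols came from the platform annotation, and gene IDs of 29 of 29 family genes matched RefSeq assembly Sscrofa11.1. No build ties probe sets to positions, so no coordinates or sequences are given. Limma 3.58.1 (R 4.3.3, lmFit and eBayes, two-sided, Benjamini-Hochberg) compared conjunctiva minus cornea, and was tested on simulated data. Shares, ranks and plots used Python 3.11.15. The members and lists were chosen with earlier results of these data known. Genes were named by a rule: up to 5 per family by smallest p, up to 5 by largest SD, all laminins and fixed epithelial genes, 23 in all. The other 6 are given by their values or ranges.

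Deviations from tissue means correlated between same-numbered clones across probe sets (r = 0.354, 0.169 and 0.349). Clones of unlike number gave r from -0.38 to 0.11. The numbers were therefore taken to pair the clones and were fitted as a block in an alternative fit. This pairing was read from the same values that the block was then fitted to, and the labels do not state it. The main fit held the tissue alone, without a block. It gave each SE, interval and p-value for which no other fit is named. Alternatives were other moderation, array centring, renewed quantile normalisation, station and module blocks, fits within a station, a level filter, other uses of probe sets and each clone left out. The count with ITGB1BP2, and the scaling of the counts by clone and by direction, were chosen after seeing the data.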

Additional observations from a re-analysis of the deposited data

How the results depend on the processing

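The count of family genes past the threshold was 0 in all 19 alternatives, 0 to 0 with 1 clone left out, and 0 with the clone number as a replicate block, which changed no call (smallest adjusted p = 0.938 by limma). The count at least 2-fold apart, 1, was 0 with the mean over a gene's probe sets and 0 to 2 with 1 clone left out (0 without cornea 1 or conjunctiva 2, 2 without conjunctiva 3). The count without overlap, 3, was 3 to 9 with 1 clone left out (5, 6, 5 and 9 without cornea 1, cornea 3, conjunctiva 1 and conjunctiva 3), and 16 within station 1 and 18 within station 2, where fewer arrays make separation easier by construction. It has no value under blocks or other moderation. Module numbers each held 1 tissue, so the module cannot be told apart from it.

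Of 23 named genes, 8 kept the sign of their difference in every alternative: ITGA2B, ITGA5, ITGB1, COL1A2, COL5A1, COL11A1, COL15A1 and COL17A1. With 1 clone left out, the lowest and highest differences of those that turned were -0.12 and 0.0215 for COL3A1, -0.282 and 0.0418 for COL6A3, -0.24 and 0.0966 for COL7A1, -0.0922 and 0.0198 for COL8A1, -0.0039 and 0.0954 for ITGA2, -0.23 and 0.0197 for ITGA6, -0.50 and 0.077 for ITGA8, -0.36 and 0.0434 for ITGAV, -0.19 and 0.46 for ITGB3, -0.31 and 0.22 for ITGB5 and -0.0502 and 0.368 for LAMB2. Within station 1 the difference turned to 0.13 for COL7A1, 0.11 for COL8A1, 0.23 for ITGA8 and 0.12 for ITGB5. Within station 2 it turned to -0.0023 for COL4A2, 0.0153 for COL6A3, 0.28 for ITGAV, -0.0914 for ITGB2, -0.37 for ITGB3, -0.0641 for LAMB1 and -0.37 for LAMB2. COL8A1 turned to 0.0079 with array median centring and 0.0038 with renewed quantile normalisation. With the mean over a gene's probe sets, COL8A1 turned to 0.0139, ITGA2 to -0.0243 and LAMC1 to -0.18. The cause was not tested.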
